A study of Mus musculus with 84 samples.

Results

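Gabrb2, Gabra5, Gabrg3, Gabra3, Gabrd and Gabre encode 6 subunits of the GABA-A receptor, the chloride channel that the inhibitory transmitter GABA opens. They were taken by gene symbol from a table of 43629 genes, in which 19 genes encode subunits of this family, and all 6 were among the 16320 genes with enough counts to be tested. RNA was sequenced from the amygdala's central nucleus (CeA), a forebrain nucleus of mostly inhibitory neurons, of 84 outbred mice of the heterogeneous stock Collaborative Cross (HS-CC). The groups were 43 females and 41 males. All of them had a 13-week choice between water and 10% ethanol that began at a median age of 15 weeks, so no group was without ethanol. The nucleus was cut out by laser from stained frozen sections, and each animal gave 1 stranded, poly(A)-selected library of 24118965 to 42036566 counts, with a median of 31573088.5. Up to 3 animals came from 1 family, and the sources used here do not say which animals shared a family or a sequencing lane, so the animals were not fully independent. The design asked how expression relates to ethanol preference, the share of all fluid that was drunk as ethanol solution, in week 1, in week 13 and on average. Mean preference ran from 0.0262 to 0.759 with a median of 0.199.

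GABA-A receptors are rings of subunits around a chloride pore, most often built of alpha, beta and gamma subunits. The alpha subunit and its partners set where a receptor lies and which drugs act on it: receptors with a gamma subunit mostly serve synapses, while receptors with the delta subunit lie outside synapses and answer to low, steady levels of GABA and to neurosteroids. Many subunit genes lie in clusters that arose by duplication of an ancestral set. Gabrg3 and Gabra5 share a cluster on chromosome 7, Gabrb2 lies in one on chromosome 11, Gabre and Gabra3 share one with Gabrq on the X chromosome, and Gabrd lies apart from the other subunit genes on chromosome 4.

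Markers were checked first. All 13 markers of CeA neurons were tested, with summed levels of 1136 to 2855 CPM (counts scaled to the library's total) per library, and Isl1 was listed at 0 in 1 library. The highest medians among them were those of Gad1 (490 CPM), Sst (350), Gad2 (315) and Slc32a1 (220). Prkcd had a median of 18.6 CPM, Crh 6.92 and Isl1 4.35, so the sum mostly reflects the former genes. Markers of neighbouring regions were present in every library as well. The 14 cortical and basolateral excitatory markers summed to 301 to 4835 CPM, with Slc17a7, a glutamate transporter of excitatory neurons, at 13.0 to 2404 CPM, and the 13 striatal spiny neuron markers summed to 831 to 9919 CPM. In these bulk libraries, fewer cells of a type and less RNA per cell cannot be told apart.

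Levels between genes are compared as RPKM, the CPM per kb of counted exons. Among the alpha subunits, Gabra3 (chromosome X, 72432681 to 72656848 of GRCm38, minus strand) was the highest of the 6 genes, with 20.7, 42.3 and 65.0 RPKM as the lowest, median and highest of the 43 females and 24.5, 41.5 and 60.7 RPKM of the 41 males. The alpha3 subunit is the main alpha subunit of several groups of monoaminergic and thalamic reticular neurons. Gabra5 (chromosome 7, 57407690 to 57510009, minus strand), whose product forms receptors outside synapses in the hippocampus, ran from 11.3 RPKM in females, with a median of 26.1 and a highest value of 56.1, and from 15.1 RPKM in males, with a median of 27.6 and a highest value of 78.7. The ranges of the sexes overlapped in both genes. Gabra5 levels above 56.1 RPKM were those of males only, and the lowest and highest Gabra3 levels were those of females. Gabra5 shares 148 of its 2653 exon bases with Gm9962 on the opposite strand, a gene with a median of 71 counts. The strand setting of the counting is not given in the sources used here, so reads in those bases could not be told apart.

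Gabrb2 (chromosome 11, 42419757 to 42629028, plus strand) encodes beta2, a beta subunit of synaptic receptors in many brain regions, and ran from 1.91 to 19.0 RPKM in females with a median of 8.44, and from 1.54 to 21.4 RPKM in males with a median of 8.62. Gabrg3 (chromosome 7, 56716465 to 57387188, minus strand), which encodes gamma3, had the narrow range of 1.14 to 4.09 RPKM in females and 1.27 to 4.67 RPKM in males, with medians of 2.65 and 2.63. Gabrd (chromosome 4, 155384980 to 155398112, minus strand), the delta subunit gene, lay between 6.77 and 42.1 RPKM in females with a median of 20.6, and between 2.12 and 52.5 RPKM in males with a median of 14.1. Both the lowest and the highest Gabrd level were those of males. Gabre (chromosome X, 72255999 to 72274803, minus strand) encodes epsilon, a subunit best known from hypothalamic and brainstem neurons, and was the lowest of the 6, with 0.0809, 0.855 and 4.14 RPKM in females and 0.0830, 0.757 and 2.98 RPKM in males.

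The order of the medians over all 84 animals was Gabra3 (41.8 RPKM), Gabra5 (26.6), Gabrd (16.9), Gabrb2 (8.60), Gabrg3 (2.64) and Gabre (0.804). The ranges of every pair of neighbours in this order overlapped. Gabra3 exceeded Gabra5 in 75 of 84 animals, Gabra5 exceeded Gabrd in 60, Gabrd exceeded Gabrb2 in 69, Gabrb2 exceeded Gabrg3 in 80 and Gabrg3 exceeded Gabre in 83, so the step from Gabra5 to Gabrd was the least regular. Together the 6 genes made up 22.9% to 35.7% of the summed RPKM of the 19 subunit genes, with a median of 29.9%.

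**Figure D1:**
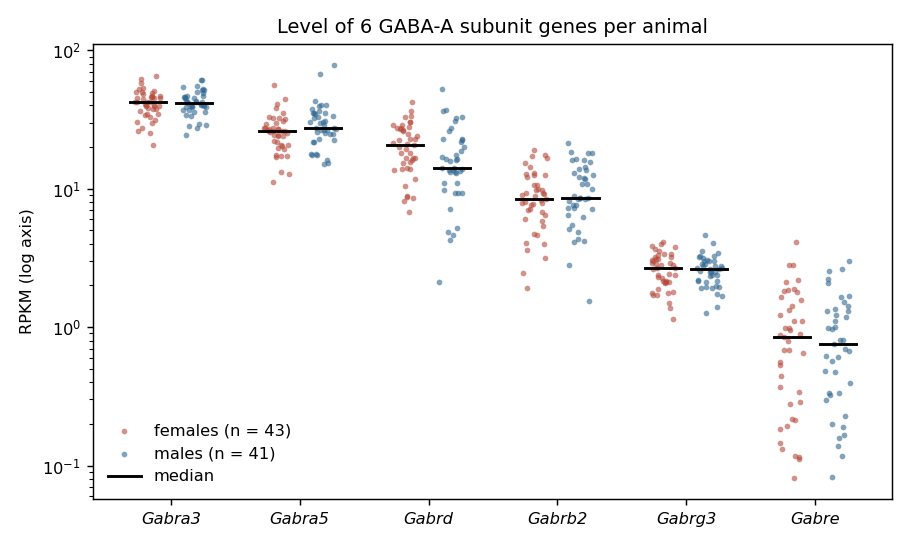
Level of each of the 6 subunit genes in RPKM on a log axis, 1 point per animal, for 43 females and 41 males, with black bars at the medians. The medians fall from 41.8 RPKM over all animals for Gabra3 to 0.804 for Gabre, and the points of Gabre spread over the widest range.

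The genes differed in how much they varied between animals. Over the 84 animals the highest level was 3.14 times the lowest for Gabra3, 4.08 times for Gabrg3, 6.98 times for Gabra5, 13.9 times for Gabrb2, 24.7 times for Gabrd and 51.1 times for Gabre. The SD of log2 CPM was 1.38 for Gabre, a value above that of 97.4% of the genes tested, 0.82 for Gabrd (89.5%), 0.78 for Gabrb2 (87.9%), 0.49 for Gabra5 (71.0%), 0.41 for Gabrg3 (62.7%) and 0.32 for Gabra3 (50.9%). The median over all genes was 0.32. Gabre also had the fewest counts, 12 in its lowest library and 630 in its highest, so its low values carry the most counting error.

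The 6 genes were next compared with each other, by genomic cluster. In all, 21 relations were computed on log2 CPM over the 84 animals, 15 between the 6 genes and 6 with the other genes of their clusters, and p-values come from 2-sided permutation tests, adjusted over the 21. Of the 15, 8 passed an adjusted p of 0.05 for Pearson's r, 2 positive and 6 negative. Both pairs of the 6 genes that share a cluster were negative. Gabra5 and Gabrg3, which lie 20.5 kb apart, had r = -0.294 (permutation p = 0.00679, adjusted 0.0148). Spearman's rho was -0.305 (permutation p = 0.00528, adjusted 0.0123). Leaving out the 2 animals with the most extreme Gabra5 levels gave an r of -0.331.

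Numbers in the sample titles, taken from a sample sheet, ascend in 4 runs of 18, 18, 17 and 31 animals, and these runs were treated as possible batches. Within these runs r of Gabra5 and Gabrg3 was -0.672, -0.470, -0.510 and 0.119, so the relation was not seen in the fourth run, which has the most animals. It also turned to 0.134 (adjusted p = 0.361) in residuals after the scores of the cortical and basolateral excitatory and of the striatal markers, which are the mean z-scores of those lists and are called the 2 region scores here. Gabra3 and Gabre on the X chromosome, 157.9 kb apart, had r = -0.292 (p = 0.00703, adjusted 0.0148) and rho = -0.276 (p = 0.0112, adjusted 0.0226). This r was -0.269 when the 2 animals with the most extreme Gabra3 levels were left out, -0.370, -0.319, -0.276 and -0.0706 within the runs, and 0.239 after the region scores (adjusted p = 0.0529). In both clusters the negative relation was thus not seen once the 2 region scores were taken out, and neither positive r passed.

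The relation of Gabre with another gene of its cluster was of another kind. Gabre and Gabrq, the gene of the theta subunit, moved closely together. Gabrq ran from 2.55 to 51.5 CPM in females with a median of 14.7, and from 2.33 to 54.5 CPM in males with a median of 12.9, while Gabre ran from 0.383 to 19.6 CPM with a median of 4.05 and from 0.393 to 14.1 CPM with a median of 3.59. Their r was 0.891 and their rho 0.923 (each p = 1e-05, the smallest that 100000 permutations can give, adjusted 7e-05). It was 0.894 when the 2 animals with the most extreme Gabre levels were left out, 0.731, 0.958, 0.882 and 0.896 within the runs, and 0.863 after the region scores. Among the 10653 genes averaging at least 3 in log2 CPM, which do not include Gabre itself, Gabrq had the highest r with Gabre. Gabra3, which lies between them on the chromosome, was at rank 8569. It had r = -0.0792 with Gabrq (rho = -0.114, adjusted permutation p = 0.602 and 0.425).

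The promoters of this pair and of the Gabrg3 and Gabra5 pair are shown because the first pair moved together and the other did not. They are the RefSeq bases before the start of transcription in GRCm38.p6, 5′ to 3′ on the strand of the gene, for which 5 of the 6 genes had an entry. Bases that the gene model of the count table holds as exon were left out, 82 in Gabre. Capitals mark GGGCGG, the GC box, on either strand.
Gabre, chrX:72274804-72274971, minus strand: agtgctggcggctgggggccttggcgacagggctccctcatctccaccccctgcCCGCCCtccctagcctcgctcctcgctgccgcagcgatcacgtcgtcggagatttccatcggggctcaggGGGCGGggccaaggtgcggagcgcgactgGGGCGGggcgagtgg
Gabrq, chrX:72824928-72825177, plus strand: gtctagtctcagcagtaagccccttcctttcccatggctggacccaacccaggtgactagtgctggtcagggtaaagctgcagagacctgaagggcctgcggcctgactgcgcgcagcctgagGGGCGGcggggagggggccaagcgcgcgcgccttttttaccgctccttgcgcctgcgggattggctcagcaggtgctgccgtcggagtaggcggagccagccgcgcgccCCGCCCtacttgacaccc
Gabrg3, chr7:57387216-57387465, minus strand: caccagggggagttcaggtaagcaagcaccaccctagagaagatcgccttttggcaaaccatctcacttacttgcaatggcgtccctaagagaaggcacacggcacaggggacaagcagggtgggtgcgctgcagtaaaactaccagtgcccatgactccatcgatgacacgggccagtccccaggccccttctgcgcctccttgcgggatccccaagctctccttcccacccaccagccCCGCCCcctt
Gabra5, chr7:57510060-57510309, minus strand: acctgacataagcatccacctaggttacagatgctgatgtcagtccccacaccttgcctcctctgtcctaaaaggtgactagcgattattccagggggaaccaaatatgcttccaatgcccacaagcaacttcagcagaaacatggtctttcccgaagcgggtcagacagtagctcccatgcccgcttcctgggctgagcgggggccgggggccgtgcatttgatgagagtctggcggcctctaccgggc
Gabre held 3 matches in its shorter window, Gabrq held 2 in 250 bases, Gabrg3 held 1 and Gabra5 held 0. A match was found in 32.7% of all 32851 RefSeq windows of 250 bases and in 19.2% of them cut to the length of the Gabre window. G and C made up 73.2% of the Gabre window and 67.2% of the Gabrq window, against 60.4% for Gabrg3, 56.4% for Gabra5 and a median of 52.4% over all windows. The windows of Gabre and Gabrq held 17 and 19 CpG pairs, and those of Gabrg3 and Gabra5 held 9 each. None of the 4 windows held the letters TGACGTCA (1.55% of all windows), CACGTG (6.02%) or TATAAA (12.4%) on either strand. The 4 genes were picked by how their levels moved together, and whether their promoters have a part in this was not tested. Gabra3, which lies between Gabre and Gabrq, had 2 promoter entries and is not shown.

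The closest pair among the 6 genes lay on different chromosomes. Gabrg3 and Gabre had r = 0.595 and rho = 0.604 (each permutation p = 1e-05, adjusted 7e-05), 0.545 without the 2 farthest animals and 0.356, 0.473, 0.806 and 0.418 within the runs. It was 0.435 after the region scores, which do not include the score of the CeA markers. With that score r was 0.790 for Gabre and 0.746 for Gabrg3. Its part in the relation of the pair was not tested. Gabra5 and Gabra3, both alpha subunit genes, had r = 0.400 (permutation p = 0.00014, adjusted 0.00063) and rho = 0.419 (p = 5e-05, adjusted 0.000263), with 0.431 without the 2 farthest animals and 0.553, 0.496, 0.355 and 0.362 within the runs. After the region scores this r was -0.0465. Gabrg3 and Gabra3 had r = -0.394 (permutation p = 0.00015, adjusted 0.00063) and rho = -0.397 (p = 0.00016, adjusted 0.000672), with -0.340, -0.502, -0.304 and -0.301 within the runs, -0.357 without the 2 farthest animals and 0.283 after the region scores. The other 3 relations that passed were of Gabra5 with Gabrd (r = -0.317, rho = -0.349), Gabrd with Gabre (r = -0.293, rho = -0.345) and Gabra5 with Gabre (r = -0.269, rho = -0.234), with permutation p of r of 0.00367, 0.007 and 0.0135, adjusted to 0.0128, 0.0148 and 0.0258, and of rho of 0.00128, 0.00146 and 0.0325, adjusted to 0.00383, 0.00383 and 0.0568. Without the 2 farthest animals r was -0.234, -0.324 and -0.179. Within the runs it was -0.660, -0.431, -0.294 and -0.113 for Gabra5 with Gabrd, 0.143, -0.0551, -0.217 and -0.478 for Gabrd with Gabre, and -0.0172, -0.553, -0.405 and -0.142 for Gabra5 with Gabre. The relation of Gabrd with Gabre thus had no single sign over the runs. Gabrg3 and Gabrd did not pass, with r = -0.0767 and rho = -0.0222 (permutation p = 0.487 and 0.842, adjusted 0.602 and 0.884), but after the region scores their r was -0.545 (adjusted permutation p = 0.000105), the farthest from 0 of the 15 in that setting.

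**Figure D2:**
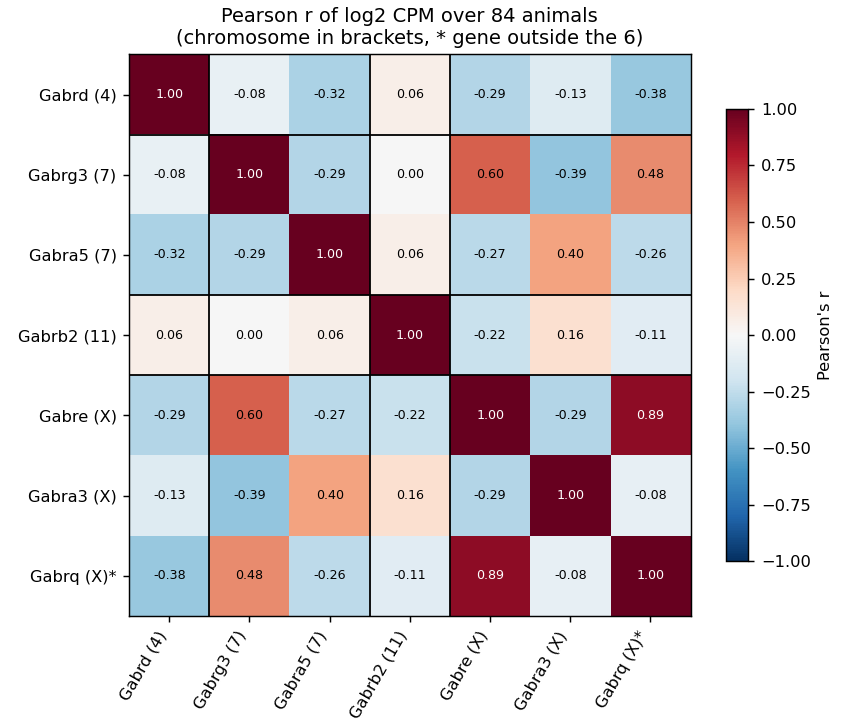
Pearson's r of log2 CPM over 84 animals for the 6 genes and Gabrq (marked with an asterisk), ordered by chromosome, with black lines between chromosomes. Gabre with Gabrq (0.89) is positive within a cluster, while Gabra5 with Gabrg3 and Gabra3 with Gabre are both at -0.29.

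**Figure D3:**
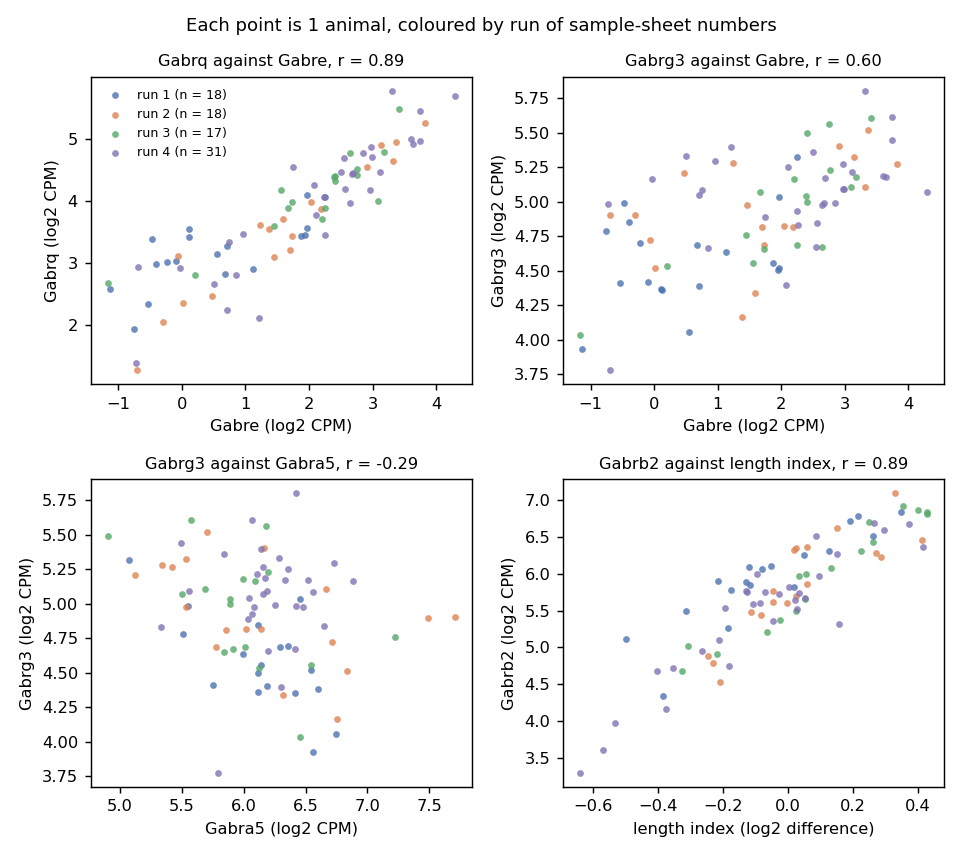
Log2 CPM of Gabrq and Gabrg3 against Gabre, of Gabrg3 against Gabra5, and of Gabrb2 against the length index, 1 point per animal, coloured by run of sample-sheet numbers. The cloud of Gabre and Gabrq is narrow (r = 0.89), that of Gabra5 and Gabrg3 is wide (r = -0.29), and Gabrb2 follows the length index in all 4 runs (r = 0.89 over all animals).

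The 6 genes also differed in the markers they moved with. Relations with the scores of 8 marker lists gave 48 values, of which 30 passed an adjusted permutation p of 0.05 for r, over the 48. None of the 6 genes is in a list. Gabre followed the score of CeA neurons with r = 0.790 and rho = 0.814, and that of thalamic, hypothalamic and medial amygdala neurons with r = 0.780 and rho = 0.787, and ran against the cortical and basolateral excitatory score with r = -0.622 and rho = -0.738. All 6 values had a permutation p of 1e-05, and the adjusted p were 3.2e-05 for r and 3.43e-05 for rho. Within the runs the lowest r of Gabre with the CeA score was 0.685, and without the 2 farthest animals it was 0.794. Gabrg3 followed the CeA score as well, with r = 0.746 and rho = 0.784 (each permutation p = 1e-05, adjusted 3.2e-05 and 3.43e-05), 0.518, 0.745, 0.833 and 0.640 within the runs and 0.753 without the 2 farthest animals. It also moved with the oligodendrocyte (r = 0.607), striatal (0.562) and thalamic, hypothalamic and medial amygdala (0.513) scores and against the excitatory score (-0.5195). Gabre moved with the oligodendrocyte score too (r = 0.544). These 5 r each had a permutation p of 1e-05, adjusted 3.2e-05.

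Gabrd went with the striatal score, with r = 0.629 and rho = 0.611 (each permutation p = 1e-05, adjusted 3.2e-05 and 3.43e-05). This r was 0.814, 0.789, 0.608 and 0.684 within the runs and 0.587 without the 2 farthest animals, while the r of Gabrd with the CeA score was -0.0844 (rho = -0.115, permutation p = 0.447 and 0.297, adjusted 0.510 and 0.348). Gabrd ran against the choroid plexus score (r = -0.388, rho = -0.433, permutation p = 0.00023 and 7e-05, adjusted 0.000526 and 0.000177), with -0.323 without the 2 farthest animals, -0.543 to -0.281 within the runs, -0.509 in females and -0.311 in males. Gabra3 rose with the cortical and basolateral excitatory score (r = 0.620, rho = 0.578) and ran against the striatal score (r = -0.607, rho = -0.521) and the oligodendrocyte score (r = -0.655, rho = -0.659), each with a permutation p of 1e-05, adjusted 3.2e-05 for r and 3.43e-05 for rho. Within the runs these r were 0.395 to 0.791, -0.753 to -0.516 and -0.812 to -0.212, and without the 2 farthest animals they were 0.589, -0.559 and -0.634. Gabra5 ran against the score of thalamic, hypothalamic and medial amygdala neurons (r = -0.556, rho = -0.503, each permutation p = 1e-05, adjusted 3.2e-05 and 3.43e-05), with -0.508 without the 2 farthest animals and -0.769 to -0.343 within the runs. It also ran against the striatal score (r = -0.470, rho = -0.4265, permutation p = 1e-05 and 6e-05, adjusted 3.2e-05 and 0.00016), with -0.456 without the 2 farthest animals and -0.714 to -0.108 within the runs. The r of Gabra5 was -0.404 with the oligodendrocyte score, -0.368 with the microglia score and -0.262 with the CeA score, which passed too (adjusted permutation p = 0.000404, 0.00148 and 0.0273). It went with the choroid plexus score at r = 0.423 (rho = 0.419, permutation p = 3e-05 and 0.00011, adjusted 8.47e-05 and 0.000264), with 0.394 without the 2 farthest animals and 0.579, 0.583, 0.469 and 0.140 within the runs, and with the excitatory score at r = 0.404 (rho = 0.306, permutation p = 0.00018 and 0.00486, adjusted 0.000432 and 0.00972), with 0.372 without the 2 farthest animals and 0.355 to 0.476 within the runs.

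Of the 8 marker scores, Gabrb2 was farthest from 0 with that of oligodendrocytes, at r = -0.287 (rho = -0.241, permutation p = 0.00852 and 0.0282, adjusted 0.0152 and 0.0467). It followed instead a length index, the median log2 deviation of the 5156 genes with over 5 kb of counted exons minus that of the 2111 genes with under 1.5 kb, which was added after the data were seen. The r was 0.892 and rho 0.856 (each permutation p = 1e-05, adjusted 6e-05 over the 6 genes), with 0.873 without the 2 farthest animals and 0.892, 0.860, 0.971 and 0.919 within the runs. For the other 5 genes r with this index lay between -0.160 and 0.170, with adjusted permutation p of 0.296 or higher. Gabrg3 has the longest counted exons of the 6, 11.9 kb against 6.36 kb for Gabrb2, and an r of 0.170. After the index was taken out, 11 of the 15 pairs among the 6 genes passed in place of 8. The 3 gained were of Gabrb2 with Gabrg3 (r = -0.345, against -0.00201 before), Gabra3 (0.287) and Gabrd (0.288), with adjusted permutation p of 0.00352, 0.0115 and 0.0112. Whether RNA quality or library preparation has a part in the relation of Gabrb2 with the index was not tested.

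In shares of variance of log2 CPM, the 4 neuron scores, those of the CeA, cortical and basolateral, striatal, and thalamic, hypothalamic and medial amygdala lists, accounted for 83.5% in Gabre, 71.1% in Gabrd, 62.7% in Gabra3, 60.7% in Gabrg3, 51.7% in Gabra5 and 16.4% in Gabrb2, with a median of 20.2% over all genes. The length index accounted for 79.6% in Gabrb2 and at most 2.89% in the other 5, with a median of 7.36% over all genes. Mean preference accounted for at most 1.60%, in Gabrg3, a share above that of 81.9% of all genes, whose median was 0.3708%. Sex accounted for at most 6.04%, in Gabrd, above 98.5% of all genes, whose median was 0.5446%. The runs of sample-sheet numbers accounted for 2.182% in Gabra5 to 21.02% in Gabre, with 19.68% in Gabrg3 and a median of 7.056% over all genes.

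**Figure D4:**
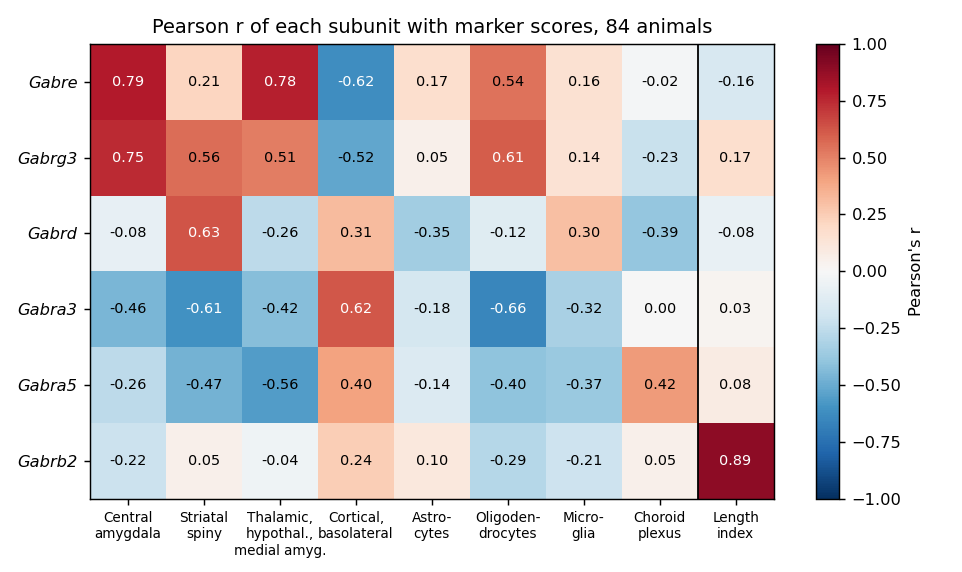
Pearson's r over 84 animals of each of the 6 genes (rows) with the scores of 8 marker lists and with the length index (columns). Gabre and Gabrg3 are highest with the CeA score (0.79 and 0.75), Gabrd with the striatal score (0.63), Gabra3 with the excitatory score (0.62), and Gabrb2 with the length index (0.89).

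The genes whose levels were most like those of each subunit over the 84 animals, by r among genes averaging at least 3 in log2 CPM, differed between the 6. For Gabrb2 they were Faxc (0.965), Dlg2, the postsynaptic scaffold PSD-93 (0.957), Pdpr (0.950), Gatad2b (0.948) and D10Bwg1379e (0.947). For Gabrd they were Arpp21, a cAMP-regulated phosphoprotein of striatal neurons (0.907), Rasgef1b (0.877), Car11 (0.871), Arpp19 (0.864) and Ngef (0.863). For Gabre they were Gabrq (0.891), Scg2, the precursor of secretory granule peptides (0.880), the imprinted Magel2 (0.870), Vat1 (0.867) and the imprinted Grb10 (0.863). For Gabrg3 they were Chn2 (0.837), Gad2, which makes GABA (0.831), Zfhx3 (0.824), Cacna2d2 (0.823) and Gm14204 (0.809), and Gad2 is in the CeA marker list. For Gabra3 they were Rap2a (0.827), Gda (0.823), Car10 (0.820), Cacna2d1 (0.809) and C2cd4c (0.800). For Gabra5 they were St6galnac5 (0.790), Map4k3 (0.767), Ak4 (0.763), the deep-layer cortical factor Fezf2 (0.755) and Pls3 (0.754), and Fezf2 is in the cortical and basolateral list. These values are descriptions of libraries that share tissue composition and depth.

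None of the 6 genes passed the test against ethanol preference. With mean preference in all 84 animals, edgeR's quasi-likelihood test called 0 of the 6 at an adjusted p of 0.05, and 0% of the 16320 genes. Log2 slopes per 0.5 rise in preference, ± SE, were -0.04 ± 0.11 for Gabra3 and 0.15 ± 0.16 for Gabra5 among the alpha subunits, -0.002 ± 0.25 for Gabrb2, -0.15 ± 0.14 for Gabrg3, -0.18 ± 0.28 for Gabrd and 0.09 ± 0.41 for Gabre. All adjusted p were 0.9995. The 95% intervals hold the slopes that the fit of each gene does not exclude, with the animals taken as independent. They spanned -0.26 to 0.17 for Gabra3 but -0.72 to 0.90 for Gabre. The unadjusted p was also above 0.05 for all 6, against 3.94% of all genes below it, and DESeq2 and limma-voom called 0 of the 6 too. The 11 choroid plexus markers had a median slope of 1.33, with 11 of 11 above 0 and 0 called. An alternative without the 5 libraries highest in their score was added after the data were seen. There the slope was 0.022 for Gabra5, -0.014 for Gabrd and -0.015 for Gabra3. It moved away from 0 for Gabre (0.156), Gabrg3 (-0.174) and Gabrb2 (-0.062). The part of these markers in the slopes was not tested further.

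In females alone the slopes on mean preference lay between -0.29 (Gabrg3) and 0.25 (Gabra5), and in males between -0.11 (Gabrd) and 0.32 (Gabrb2), with 0 of 6 called in each and 0% of all genes. At an unadjusted p under 0.05 the count was 0 of 6 in each, against 6.95% of all genes in females and 1.65% in males. The sex by mean preference term called 0 of 6, and 0% of all genes, with a smallest unadjusted p of 0.248 among the 6, where 3.24% of all genes were under 0.05. For preference in week 1 edgeR called 0 of 6 in all animals (0.0306% of all genes), 0 of 6 in females (0%) and 0 of 6 in males (0.0368%). For preference in week 13 it called 0 of 6 in all animals (0%), in females (0.0368%) and in males (0%). None of the 6 had an unadjusted p under 0.05 in these comparisons, where 3.25%, 2.26% and 5.17% of all genes had one in week 1 and 6% (all animals), 8.67% (females) and 3.74% (males) in week 13.

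The widest gap between the sexes was that of Gabrd in week 13. Its slope was -0.38 ± 0.22 in the 43 females (edgeR adjusted p = 0.744) and 0.64 ± 0.35 in the 41 males (adjusted p = 0.984). The term for the difference, added after both slopes were seen, was 1.01 ± 0.41 with an unadjusted p of 0.0157 and an adjusted p of 0.690, so it did not pass over all genes. It called 0 of 6 (0.00613% of all genes), and Gabrd was the 1 gene of the 6 with an unadjusted p under 0.05, as 6.23% of all genes had. The 13 striatal markers, which Gabrd followed, had a median slope of -0.95 in females and 1.07 in males. In females 13 of 13 were below 0 and in males 13 of 13 above 0, with 0 called in each. Unadjusted p of edgeR's test were under 0.05 for 13 of 13 in females, 4 of 13 in males and 13 of 13 for the difference. The shares of all genes were 8.67%, 3.74% and 6.23%. Markers of a list were measured in the same libraries and are averaged as 1 score, so these counts are not of independent tests. The 11 choroid plexus markers, against which Gabrd ran, had a median slope of 2.84 in females, where 10 of 11 had an unadjusted p under 0.05, and of 0.12 in males, where 0 of 11 had one, with 0 called in each. Without the 5 libraries highest in their score the Gabrd slope was -0.21 in females and 0.79 in males, and the term for the difference 1.00. With the 2 region scores as covariates the Gabrd term was 0.25, and with the 4 neuron scores 0.10. The part of the marker scores in this term was not tested.

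**Figure D5:**
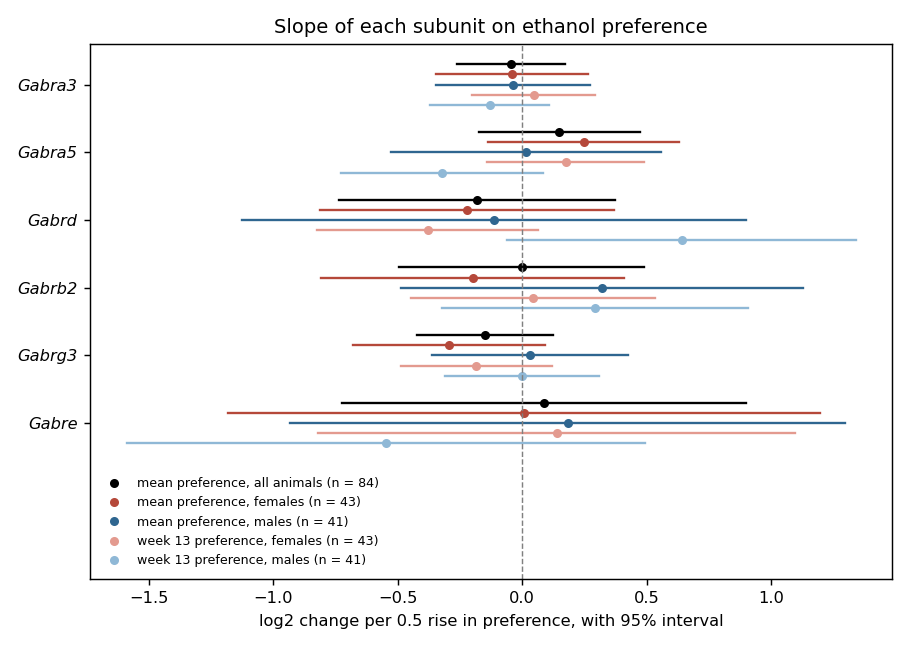
Log2 change of each gene per 0.5 rise in ethanol preference, with 95% intervals from edgeR, for mean preference in all animals and in each sex and for week 13 preference in each sex. All intervals include 0, and the intervals of Gabre, Gabrd and Gabrb2 are wider than those of Gabra3 and Gabrg3.

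The sexes were also compared directly, since Gabra3 and Gabre lie on the X chromosome. The log2 difference, male minus female, was 0.01 ± 0.07 for Gabra3 and -0.11 ± 0.28 for Gabre. Gabra5 had 0.21 ± 0.11, Gabrb2 0.17 ± 0.16, Gabrg3 -0.01 ± 0.09 and Gabrd -0.26 ± 0.16. edgeR called 0 of 6 (0.0919% of all genes), with adjusted p of 0.986 or higher and a smallest unadjusted p of 0.0543, for Gabra5, where 3.81% of all genes were under 0.05. For Gabrd edgeR's unadjusted p was 0.111, while its share of log2 CPM variance by sex, 6.04%, was above that of 98.5% of all genes. The place of Gabrd thus differed between the 2 measures. The interval of the Gabra3 difference, -0.12 to 0.15, was the narrowest of the 6.

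Levels differed between the runs of sample-sheet numbers for 3 of the 6 genes, with sex in the fit, where 21.7% of all genes were called. The same 3 genes had an unadjusted p under 0.05, as 37.8% of all genes had. Gabre (edgeR adjusted p = 0.00466) had median levels of 1.21, 3.07, 5.20 and 5.81 CPM in the 4 runs, with ranges that overlapped. Gabrg3 (adjusted p = 0.0076) had 23.1, 29.8, 32.8 and 34.02 CPM, and Gabra3 (adjusted p = 0.0275) had 179.2, 154.2, 157.2 and 166.8 CPM. The first run was thus the lowest in Gabre and Gabrg3 and the highest in Gabra3. The mean CeA score was -0.54, -0.06, 0.05 and 0.32 in the same runs, and 9 of the 13 CeA markers were called between runs. With the 4 neuron scores as covariates, 0 of the 6 genes were called, and 725 of the 16320 genes in all, against 3543 without them. The part of these scores in the run differences was not tested.

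Other genes of the receptor system were tested in the same fits. Of the 13 other subunit genes 9 were tested, and 0 were called for preference in any week or sex group or for sex. The 3 with the smallest p for mean preference in all animals were Gabrb1 (0.18 ± 0.13 per 0.5 rise), Gabra4 (-0.13 ± 0.11) and Gabrr2 (-0.45 ± 0.38), with edgeR adjusted p of 0.9995. The median slope of the 9 genes tested was -0.03, against -0.02 for the 6 genes and -0.002 over all genes. Between runs, where 21.7% of all genes were called, 3 of the 9 (33.3%) were: Gabrg1 (edgeR adjusted p = 0.00606), Gabrq (0.00975) and Gabrr2 (0.0153). Of 26 genes for anchoring, traffic and chloride transport, such as Gphn, which encodes the scaffold gephyrin, and Slc12a5, which encodes the chloride exporter KCC2, all 26 were tested and 0 were called for preference or sex, while 6 (23.1%), a share near that of all genes, were called between runs: Insyn1, Nlgn2, Iqsec3, Trak1, Gabarapl2 and Slc12a2. The 3 with the smallest p for mean preference were Insyn2a (-0.14 ± 0.11), Ubqln1 (-0.05 ± 0.04) and Gabarapl2 (-0.07 ± 0.06), with adjusted p of 0.9995.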

How the data were processed

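The values are counts of reads per gene without normalization, deposited by the authors, with 1 column for each of the 84 animals. FastQC, STAR, Subread featureCounts 1.6.0 and DESeq2 and the build GRCm38 (mm10) are named per the submitters' processing notes. The sources used here name no strand setting, annotation release or filter. In all, 8 columns were left aside, 3 that hold undetermined reads and 5 that are empty.

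Genes were kept by edgeR's filterByExpr (minimum count 10, minimum total 15, sexes as groups), scaled by TMM and fitted with edgeR 4.0.16's robust quasi-likelihood model in R 4.3.3, with Benjamini-Hochberg adjustment over the 16320 genes tested and a threshold of 0.05. DESeq2 1.42.0 and limma 3.58.1 (voom) were alternatives, as were other scaling, no filter, run, marker scores, ranks of preference, intake and 1 library left out. Fits in all animals had sex as a term. The SE of a slope is its size divided by √F. CPM were computed on TMM-scaled totals (log2 values with 2 prior counts), and correlations used 100000 permutations. The scripts were tested on simulated data. Sex, preference and intake came from the labels.

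Of the 21 relations between genes, 4 are not reported here. The members and lists were chosen with earlier results of these data known. Named were the 6 genes, the other genes of their clusters, the 5 genes most like each, and, of the lists, genes past the threshold and the 3 with the smallest p for mean preference. Insyn1 and Insyn2a stand in the table as 6030419C18Rik and Fam196a.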

Additional observations from a re-analysis of the deposited data

How the results depend on the processing

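No paired analysis was possible because the replicate numbers follow the listing order and pair nothing. In all comparisons with preference and sex, 0 of the 6 genes were called under every alternative run. Between runs 3 were called, and 0 with the 4 neuron scores as covariates, where fewer of all genes were called as well. In place of 8, 5 member pairs passed after the region scores, 6 after sex and run and 11 after the length index. After the region scores the r of Gabra5 with Gabrg3 was 0.134 and that of Gabra3 with Gabre 0.239, and neither passed. The latter was -0.220 after sex and run (adjusted permutation p = 0.0776).

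Slopes on mean preference changed sign in 5 of the 6 genes, Gabrd included, whose slope was the farthest from 0. Rank slopes are per rise over the whole range of ranks of preference, and intake slopes per 10 g/kg of mean intake. Only the signs of these can be set against the slopes per 0.5 rise in preference. Gabrb2 became 0.038 (limma-voom), 0.13 (run), 0.026 (without male replicate 39), 0.073 (rank) and 0.051 (intake). Gabre became -0.33 (limma-voom), -0.21 (run), -0.10 (rank) and -0.18 (intake), Gabrd 0.069 (rank), Gabra3 0.00050 (limma-voom) and Gabrg3 0.0010 (neuron scores). Sex differences became -0.012 for Gabrb2 (length index), 0.051, 0.0034 and 0.0097 for Gabrg3 (region scores, without the 5 highest choroid plexus scores, neuron scores) and -0.019 and -0.038 for Gabra3 (region and neuron scores). The cause was not tested.

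After the region scores r went from -0.0767 to -0.545 for Gabrg3 with Gabrd and was 0.103 for Gabrb2 with Gabrg3, -0.179 for Gabrb2 with Gabrd, -0.0465 for Gabra5 with Gabra3, 0.00366 for Gabra5 with Gabre, 0.283 for Gabrg3 with Gabra3, 0.0426 for Gabra3 with Gabrd and 0.406 for Gabra3 with Gabrq. After sex and run it was 0.103 for Gabrb2 with Gabrg3, 0.0208 for Gabrg3 with Gabrd, 0.00391 for Gabra3 with the choroid plexus score and 0.0238 for Gabrd with the CeA score. After the length index it was -0.345, 0.287 and 0.288 for Gabrb2 with Gabrg3, Gabra3 and Gabrd, which then passed, -0.0318 for Gabrb2 with Gabra5, and -0.0157 and 0.0879 for Gabrb2 with the choroid plexus and microglia scores.

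Counts of all genes called moved by over 1.5 times in 47 of 148 alternatives. In week 13 in females the 6 called by edgeR became 572 with intake, 80 with no filter, 1.26% of the 16320 genes with DESeq2, 24 with run, 2 with region scores, 1 with the length index and 0 with limma-voom. For mean preference, 0 became 53 in all animals with no filter, 23 in females with no filter and 1.26% of the 16320 genes in females with intake, and for week 13 in all animals 71 with no filter and 67 with intake. Sex differences rose from 15 to 74 with no filter. The SE of the mean preference slope of Gabre was 0.41, against a median of 0.11 over all genes, at a median of 114 counts and a biological CV between animals of 0.846 as edgeR estimates it.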

Other observations

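Some animals stood at the end of the range of more than 1 of the 6 genes, and they were picked out after their values were seen. Male replicate 15 had the lowest Gabrd level of all animals, 6.10 CPM, and the second highest Gabre level, 14.1 CPM. Male replicate 18 had the highest Gabra5 level, 208.8 CPM, the second lowest Gabrd level, 12.2 CPM, and the lowest Gabrq level, 2.33 CPM. The striatal scores of these animals were -1.16 and -1.51, and their mean preferences 0.248 and 0.106. Male replicate 28 had the highest Gabrd level, 150.9 CPM, with a striatal score of 2.42. Male replicate 35 had the lowest Gabrb2 level, 9.76 CPM, with a length index of -0.64, and the second lowest Gabra3 level, 96.2 CPM.

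Genes that ran opposite to Gabrb2 over the 84 animals included Rbx1 (r = -0.901), Psmb4 (-0.896), Atp5o (-0.887), Pam16 (-0.876) and Rpl38 (-0.876), which encode parts of a ubiquitin ligase, the proteasome, the ATP synthase, the mitochondrial import motor and the ribosome. Their counted exons were 0.542 to 2.26 kb long, while those of the 5 genes most like Gabrb2 were 1.91 to 10.3 kb long. These values are descriptions, and their cause was not tested.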
